A study of Mus musculus with 8 samples.

Results

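The high-numbered microRNAs (miRNAs) of mouse liver were taken as every mature miRNA in the deposited count table whose name is mmu-miR- followed by a number of 1000 or more, leaving out the sequences that the authors predicted themselves. This gave 65 entries and, with 1 row for each distinct sequence, 63 of the 443 mature sequences in the table. The other sequences were 314 with an established name and a number under 1000, let-7 included, and 66 predicted ones. Liver was compared between male mice of the inbred C57BL/6J strain on a normal chow diet and on a high-fructose diet (HFrD), with 4 samples in each group and 2 weeks of feeding from an age of 10 to 11 weeks. The HFrD, which the labels describe as a model of nonalcoholic fatty liver disease, supplied 10% of its energy as fat, 70% as carbohydrate and 20% as protein. The sources used here do not give the make-up of the chow, and fructose cannot be told apart from other differences between the diets. The labels do not state that each sample came from its own mouse, so each p-value sets a difference against the spread among these samples, which may be technical.

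A miRNA is a short RNA cut from a hairpin precursor, and its seed, bases 2 to 8, does most of the pairing with target messenger RNAs. Numbers are given in the order in which miRNAs are registered, so a high number mostly marks a miRNA that was found late and by deep sequencing. Such late entries include hairpins that lie inside other small RNAs, namely small nucleolar RNAs (snoRNAs) and small Cajal body RNAs (scaRNAs), which guide the chemical modification of ribosomal and spliceosomal RNA. They also include mirtrons, whose hairpin is a whole short intron freed by splicing.

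The mature sequences of the 10 most abundant members, which include the 3 with the smallest p-values between the diets, are given 5′ to 3′ as listed in the count table, with the seed in capitals. They were matched by name and sequence to RefSeq's miRNA records on GRCm38.p6, the assembly behind mm10.
miR-1839-5p: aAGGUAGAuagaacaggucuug
miR-1198-5p: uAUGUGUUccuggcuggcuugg
miR-1843a-5p: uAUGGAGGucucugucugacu
miR-1843b-5p: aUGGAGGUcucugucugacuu
miR-1191a: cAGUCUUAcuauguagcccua
miR-12182-3p: uAAUUAGGcucuggaucuguga
miR-3068-5p: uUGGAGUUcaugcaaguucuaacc
miR-3535: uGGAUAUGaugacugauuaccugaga
miR-3068-3p: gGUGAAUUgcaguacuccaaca
miR-1964-3p: cCGACUUCugggcuccggcuuu
Each of these 10 had a seed of its own. The 2 forms of miR-1843 are the same sequence shifted by 1 base, with 20 bases in common, so their seeds differ although reads of one could be counted for the other. Among all 63 members, 3 shared a seed with a lower-numbered miRNA of the table. miR-5129-3p is one of them, and it is shown with miR-455-5p because both carry the seed AUGUGCC while the rest of the sequence differs.
miR-5129-3p: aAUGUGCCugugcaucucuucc
miR-455-5p: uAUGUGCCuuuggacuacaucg
The counts of this pair were far apart, with 10 counts in all 8 libraries together for miR-5129-3p and 1178 for miR-455-5p. The others were miR-6539, with the seed of miR-128-3p, and miR-6952-3p, with that of miR-301a-5p. Within the members, miR-1966-3p and miR-12178-3p shared a seed.

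Libraries held 1120035 to 1638036 counts, and 1 count was worth 0.610 to 0.893 CPM, the count scaled to the library total. Counts below 2 were not listed, so a blank was read as 0. Without molecular identifiers, PCR copies of 1 molecule count more than once, so counting alone understates the error. Hepatocyte miRNAs (miR-122, miR-192 and miR-194) summed to 243414 to 266900 CPM in chow and 214397 to 250739 CPM in HFrD on the TMM scale, with all 4 markers found and 1 of them, miR-122-3p, called as lower in HFrD (edgeR). The 2 arms of miR-126a, markers of endothelium, summed to 7437 to 10079 CPM in chow and 5890 to 6863 CPM in HFrD, without overlap, and miR-126a-3p was called as lower in HFrD (edgeR). The part of these markers in the results was not tested. The summed erythroid, lymphoid and myeloid, biliary, stellate, muscle and pancreatic markers overlapped between the diets, and 1 of the 3 muscle and 2 of the 3 pancreatic markers were not matched to an entry of the table. In such bulk samples, fewer cells of a type and less RNA per cell cannot be told apart.

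The high-numbered miRNAs were rare. All 63 together held 9175 of 10469027 counts, and their median TMM-scaled level (library sizes corrected for composition) was 0.739 CPM against 6.64 CPM for the named miRNAs under 1000 and 0.327 CPM for the predicted sequences. Only 11 members (17.5%) were listed in all 8 libraries, against 185 of the 314 lower-numbered miRNAs (58.9%) and 9 of the 66 predicted sequences (13.6%). At the other end, 19 members (30.2%) were listed in 1 library, against 42 of 314 (13.4%) and 38 of 66 (57.6%). The members thus lay between the other groups, nearer to the predicted sequences in the share listed in all libraries. Of the 233 member values that were not blank, 74 (31.8%) were 2, the lowest value in the table.

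**Figure D1:**
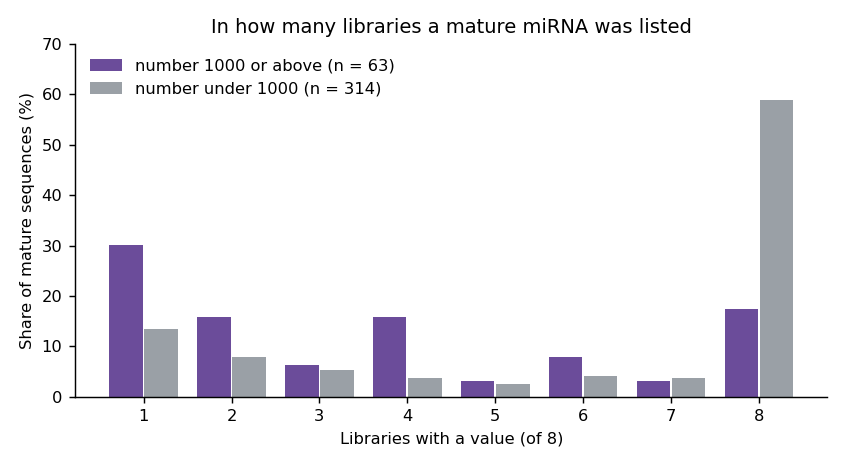
Share of mature sequences (%, vertical axis) by the number of libraries, out of 8, in which the table lists a value (horizontal axis), for the 63 high-numbered miRNAs and the 314 with a number under 1000. The high-numbered group peaks at 1 library with 30.2%, while 58.9% of the lower-numbered group fall in the class of 8 libraries.

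The number of members listed per library overlapped between the diets. Chow replicates 1 to 4 listed 34, 19, 31 and 26 members, and HFrD replicates 1 to 4 listed 32, 27, 34 and 30. Chow replicate 2, with the fewest, and chow replicate 1, with as many as the deepest library, differed little in depth (1223473 and 1231068 counts). Members listed in 1 diet alone were about as many for each, with 13 in HFrD and 12 in chow, and none of these exceeded 5 counts in a library.

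Abundance was concentrated in the lowest numbers. The 21 members with the lowest numbers, 1191 to 1983, held 86.0% of the members' counts. The 12 members numbered 3057 to 3535 held 7.51%, the 6 numbered 12178 to 12195 held 4.83%, the 20 numbered 6516 to 7688 held 1.42% and the 4 numbered 5099 to 5615 held 0.240%. Of the 443 counts of the 6 with the highest numbers, 380 were miR-12182-3p. By arm, the 21 members named 5p held 81.7% of the counts and the 34 named 3p held 11.1%. Members were slightly richer in G and C than lower-numbered miRNAs, with a median of 50.0% against 45.5%, and equal in median length (22 bases).

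Precursor positions were known for most members. Of the 63 sequences, 54 were found in the RefSeq table. By GENCODE M21 on GRCm38, 33 of these 54 had a precursor within an intron of a gene on the same strand. Of the others, 15 overlapped an exon, 5 lay outside genes and 1 lay opposite a gene. For miR-6948-5p, miR-6948-3p, miR-3474 and miR-7015-3p, counted as within an intron, no precursor was given and the mature sequence was used. Exact matches were also sought in 3907 annotated structural RNA transcripts, a set with no cytosolic transfer RNA. In it, 11 members (17.5%) had a match, each within a snoRNA or scaRNA. Of the 314 lower-numbered miRNAs 2 had one (0.637%), the arms of miR-664, both in a snoRNA. Of the 66 predicted sequences 8 matched a structural RNA of any type on either strand (12.1%). Not all of these lay in a snoRNA, since some matched a mitochondrial transfer RNA or the strand opposite a ribosomal RNA. The 11 members held 6079 of the 9175 member counts (66.3%). The counts alone do not tell a processed miRNA from another fragment of the same small RNA with these ends, and this was not tested.

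The library protocol in the labels names ribosomal RNA depletion and a stranded total RNA kit, and they do not say how small RNA was selected. Of the 11 members in snoRNAs or scaRNAs, 6 passed the filter on low counts (filterByExpr, minimum count of 10), as did 5 of the 52 others. Members that passed had at least 8 counts in every library, and none of the 52 that did not pass exceeded 8 counts in any.

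miR-1839-5p was the most abundant member and ranked 44 of 443 sequences. It lies at chr7:81529919-81529940 on the plus strand, in a gene that GENCODE types as a scaRNA and in an exon of the long non-coding RNA 2900076A07Rik. Its counts were 358, 329, 343 and 438 in chow replicates 1 to 4 and 409, 331, 513 and 356 in HFrD replicates 1 to 4. On the TMM scale the level was 305 ± 56.9 CPM for chow against 284 ± 26.99 CPM for HFrD (SD, n = 4 per diet). Chow replicate 4 reached 390 CPM while chow replicates 1 to 3 lay between 267 and 285 CPM, and the diets overlapped. As log2 of HFrD over chow this was −0.10 (SE 0.13, adjusted p = 0.617, edgeR), and its sign turned with the scaling. The opposite arm, miR-1839-3p, had 12 counts in 4 libraries, so the 5p arm was 256 times as frequent.

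The miR-1843 pair came next among the members inside scaRNAs. miR-1843a-5p lies at chr12:80391654-80391674 on the minus strand, within Scarna3b, an intron of Dcaf5 and an exon of the sense-intronic RNA CT030161.1, and ranked 60. miR-1843b-5p lies at chr1:159340362-159340382 on the plus strand, within Scarna3a and an intron of Cop1, a ubiquitin ligase gene, and its sequence also occurs within Scarna3b. miR-1843a-5p had 165, 180, 171 and 205 counts in chow and 173, 153, 231 and 195 in HFrD. miR-1843b-5p had 94, 86, 108 and 93 counts in chow and 103, 90, 126 and 117 in HFrD. Neither separated the diets, with log2 fold changes of −0.16 (SE 0.14, adjusted p = 0.483) and −0.02 (SE 0.14, adjusted p = 0.921, edgeR). For miR-1843b-5p the sign turned with the scaling. Summed to 1 miRNA, which was tried only once the data had been seen, they gave −0.12 (SE 0.12, adjusted p = 0.537, edgeR). The opposite arm, miR-1843a-3p, had 20 counts in 6 libraries against 1473 for the 5p arm.

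miR-3535 lies at chr1:86352062-86352087 on the minus strand and begins at base 1 of the 80-base snoRNA Gm24148, in the locus of Ncl, the gene of the nucleolar protein nucleolin. With 26 bases, it and miR-1291 were the longest members. It had 35, 26, 21 and 26 counts in chow and 26, 24, 31 and 20 in HFrD. The levels overlapped, with a log2 difference of −0.32 (SE 0.23, adjusted p = 0.453, edgeR). miR-1291, at chr15:98519828-98519853 on the minus strand, begins at base 1 of Snora34 in an intron of Kansl2. It was not tested, having 0, 6, 2 and 4 counts in chow and 6, 8, 0 and 5 in HFrD.

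miR-3068 was the one hairpin whose arms were of like abundance and both tested. It lies on chromosome 12 at 87437679 to 87437757 on the minus strand, in a gene that GENCODE types as a snoRNA, in an intron of the demethylase gene Alkbh1 and an exon of the long non-coding RNA Gm29362. The 5p arm had 26, 39, 32 and 34 counts in chow and 24, 24, 31 and 19 in HFrD. The 3p arm had 21, 25, 18 and 16 counts in chow and 17, 28, 39 and 36 in HFrD. The 5p arm was the more frequent in all 4 chow libraries and in HFrD replicate 1, and the 3p arm was the more frequent in HFrD replicates 2, 3 and 4.

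miR-3068-5p was at 27.2 ± 5.53 CPM for chow against 17.4 ± 3.04 CPM for HFrD (SD, n = 4 per diet) on the TMM scale. The difference of −0.64 on the log2 scale (SE 0.23) missed the 0.05 threshold (adjusted p = 0.0953, edgeR), although its groups did not overlap. The separation was narrow, with chow replicate 1 at 20.7 CPM and HFrD replicate 2 at 20.6 CPM. Over library totals the groups overlapped, since chow replicate 1 (21.1 CPM) lay below HFrD replicate 2 (21.4 CPM). Of all 170 sequences tested, 14.1% did not overlap on the TMM scale and 15.9% did not over library totals. miR-3068-3p was at 16.5 ± 3.35 CPM for chow against 21.6 ± 7.31 CPM for HFrD (SD, n = 4 per diet), or 0.37 on the log2 scale (SE 0.28, adjusted p = 0.466, edgeR).

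The ratio of the arms within a library does not depend on library scaling. For miR-3068, log2 of the 5p over the 3p count, with 0.5 added to each, was 0.70 ± 0.32 (SD, n = 4) in chow and −0.24 ± 0.57 (SD, n = 4) in HFrD. The difference was −0.94, and HFrD replicate 1 (0.49) lay above chow replicate 1 (0.30). This did not pass the exact two-sided permutation test (p = 0.0571, or 0.171 adjusted over 3 hairpins; the smallest p that 4 against 4 samples allow is 0.0286). The other hairpins tested were miR-1843a (difference 0.24, exact permutation p = 0.657) and miR-12184 (0.30, exact permutation p = 0.914). The 3p arm of miR-1843a was rare and had blanks, as did both arms of miR-12184 (20 and 21 counts). Of 7 hairpins with both arms among the members, 4 were listed too seldom for this test.

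**Figure D2:**
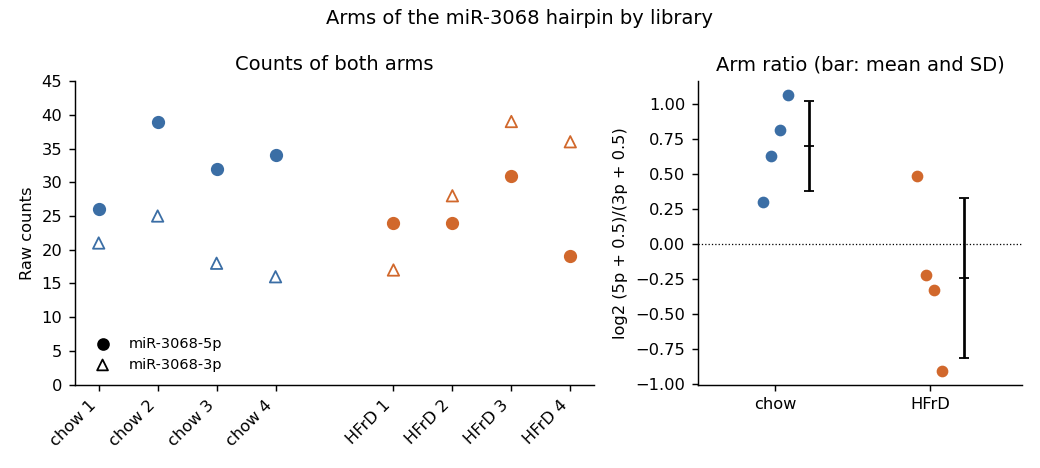
Left, raw counts (vertical axis) of miR-3068-5p (filled circles) and miR-3068-3p (open triangles) in each chow (blue) and HFrD (orange) library; right, log2 ratio of the arms by library, with the mean and SD (n = 4) as a bar. The 5p arm is above the 3p arm in every chow library and in HFrD replicate 1, and the ratios of the diets overlap there.

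Outside snoRNAs and scaRNAs, miR-12182-3p was the member that rose. Its precursor, Gm51288, lies outside annotated genes on chromosome 11 at 86852604 to 86852658 on the minus strand, and the mature sequence covers chr11:86852604-86852625. It had 23, 29, 43 and 21 counts in chow replicates 1 to 4 and 51, 53, 98 and 62 in HFrD replicates 1 to 4. Every HFrD count was above every chow count. The TMM-scaled level was 23.8 ± 7.06 CPM for chow against 46.6 ± 11.8 CPM for HFrD (SD, n = 4 per diet), a 1.95-fold rise (log2 fold change 0.96, SE 0.24, adjusted p = 0.0212, edgeR). On that scale the groups just overlapped, with chow replicate 3 at 33.4 CPM and HFrD replicate 1 at 32.7 CPM. Over library totals they did not, at 32.1 CPM and 36.8 CPM for the same libraries. Of all 170 sequences tested, 13.5% were higher in HFrD without overlap on that scale.

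The edgeR call of miR-12182-3p was 1 among the 11 members tested. That share is to be read against the 5.88% of all 170 sequences that passed in either direction and the 2.35% that passed as higher. No member passed as lower, where 3.53% of all did. The call did not hold in every fit with 1 library left out, and such fits have fewer samples. It ended without chow replicate 1 (log2 fold change 0.85, adjusted p = 0.0797), chow replicate 2 (0.97, adjusted p = 0.0991), chow replicate 4 (0.84, adjusted p = 0.0562) or HFrD replicate 3 (0.78, adjusted p = 0.0645). It also ended with upper quartile factors (1.07, adjusted p = 0.0614), out of 21 alternatives in which adjusted p ran from 0.000289 to 0.0991 and the direction was kept.

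miR-1964-3p showed a difference of like size at a lower level. It lies at chr7:29773344-29773365 on the plus strand, in an intron of the zinc finger gene Zfp84. It had 11, 12, 24 and 9 counts in chow and 25, 22, 50 and 30 in HFrD. The level was 11.4 ± 4.92 CPM for chow against 22.2 ± 6.70 CPM for HFrD (SD, n = 4 per diet), and the difference of 0.95 on the log2 scale (SE 0.30) did not pass (adjusted p = 0.0585, edgeR). As with miR-12182-3p, replicate 3 was the highest library of each diet, and chow replicate 3 (18.7 CPM) lay above HFrD replicate 1 (16.0 CPM). Over library totals the groups did not overlap, at 17.9 CPM and 18.04 CPM for those libraries. With miR-12182-3p, 2 of the 11 tested members did not overlap on that scale, beside 13.5% of all 170 sequences that were higher without overlap. miR-1964-3p passed in 8 of 21 alternatives, among them the fits that left out chow replicate 3 (1.30, adjusted p = 0.0202) or HFrD replicate 1 (1.12, adjusted p = 0.0208). After correction for GC content, which is 63.6% in this miRNA, the log2 fold change was 0.63 (adjusted p = 0.161, limma).

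miR-1198-5p was the second most abundant member, at rank 58, and lies at chrX:7807142-7807163 on the plus strand in an intron of Gripap1. It had 180, 152, 226 and 133 counts in chow and 247, 178, 282 and 247 in HFrD, with chow replicate 3 again the highest of its group. HFrD was above chow by 0.25 on the log2 scale (SE 0.13, adjusted p = 0.281, edgeR). miR-1191a, at chr7:27205615-27205635 on the plus strand in the locus of BC024978, had 36, 43, 35 and 44 counts in chow and 47, 48, 82 and 55 in HFrD. Every HFrD count was above every chow count, but the groups overlapped once scaled to depth, and the log2 difference was 0.33 (SE 0.21, adjusted p = 0.396, edgeR).

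**Figure D3:**
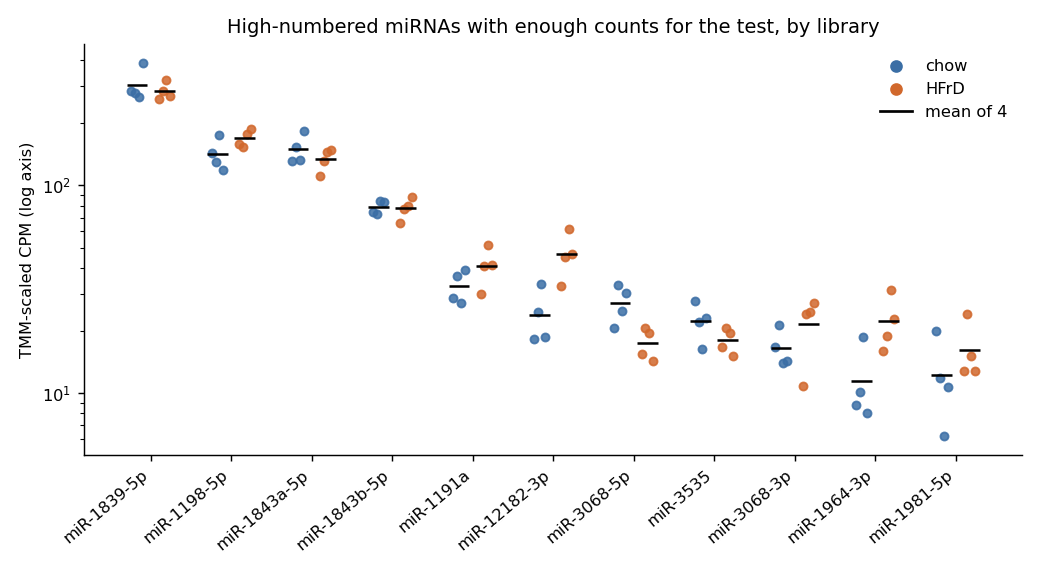
TMM-scaled CPM (log axis) of the 11 tested members in each chow (blue) and HFrD (orange) library, with the mean of 4 libraries as a black line. miR-12182-3p is at 18.3 to 33.4 CPM in chow and 32.7 to 61.6 CPM in HFrD, and most other members overlap more widely.

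Over the 11 tested members, 1 rose, none fell and 10 did not pass with edgeR. An unadjusted p under 0.05 was reached by 3 of them (27.3%), close to the 23.5% of all 170 sequences. The median log2 fold change was 0.25, beside 0.01 for all tested sequences. Scaling bears on such values, since with library totals in place of TMM factors the median of all 170 sequences was 0.13. The 5 tested members outside snoRNAs and scaRNAs all had positive values, from 0.25 to 0.96, and 5 of the 6 inside them had negative values on the TMM scale, down to −0.64, with miR-3068-3p the exception. With library totals, upper quartile factors or the normalized values, miR-1839-5p and miR-1843b-5p turned positive, which left 3 of the 6 negative. Over all 170 tested sequences, 89 values were positive and 81 negative on the TMM scale. No test was made of this division.

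**Figure D4:**
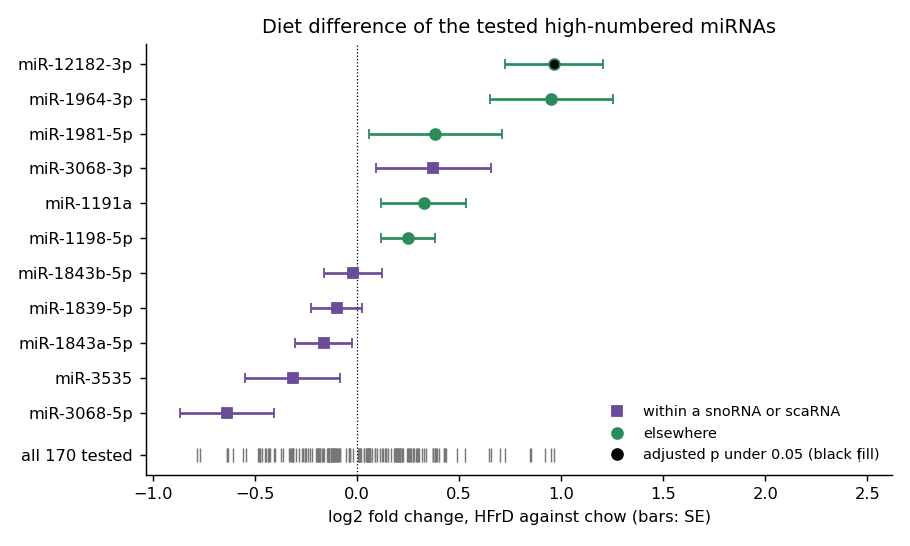
Log2 fold change of HFrD against chow with its SE (horizontal axis) for the 11 tested members, with squares for members within a snoRNA or scaRNA and circles for the others; the bottom row marks all 170 tested sequences. The black-filled point is miR-12182-3p (0.96), the one member with an adjusted p under 0.05.

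The summed levels were compared in the same way. All members together held 0.0845%, 0.0785%, 0.0810% and 0.0855% of the counts in chow replicates 1 to 4 and 0.0870%, 0.0916%, 0.0960% and 0.0951% in HFrD replicates 1 to 4. Every HFrD library was above every chow library, with 823 ± 32.2 CPM for chow against 924 ± 40.8 CPM for HFrD over library totals (SD, n = 4 per diet). On the TMM scale the sums overlapped, at 861 ± 64.4 CPM and 889 ± 89.8 CPM. The 66 predicted sequences also separated, at 513 to 593 CPM in chow and 632 to 671 CPM in HFrD over library totals and with overlap on the TMM scale. The 11 members inside snoRNAs and scaRNAs summed to 526 to 651 CPM in chow and 551 to 595 CPM in HFrD over library totals. The 52 others summed to 204 to 284 CPM in chow and 320 to 367 CPM in HFrD, without overlap. On the TMM scale, however, chow replicate 3 (295 CPM) lay above HFrD replicate 1 (284 CPM). Such a sum is weighted to its most abundant members. The 52 untested members, a different set, overlapped over library totals (20.4 to 53.6 CPM in chow, 39.7 to 46.2 CPM in HFrD).

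**Figure D5:**
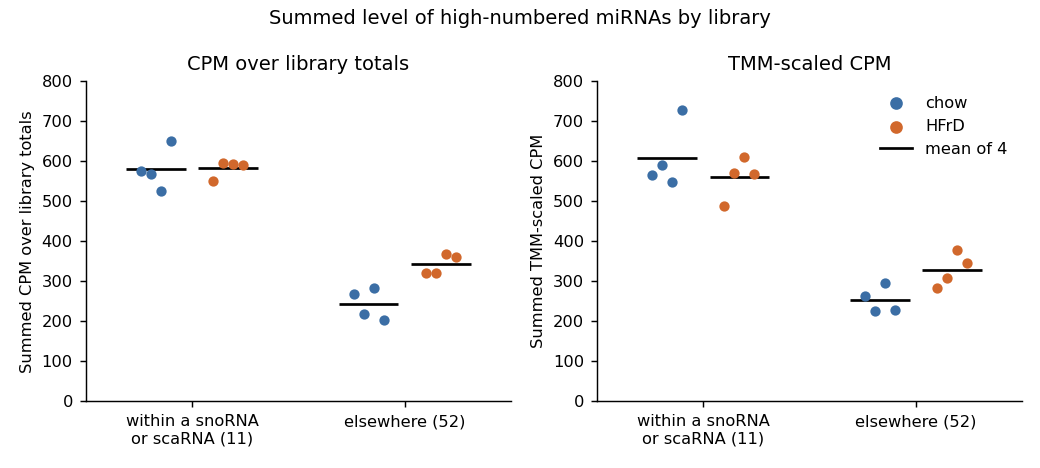
Summed level of the 11 members within a snoRNA or scaRNA and of the 52 others, in each chow (blue) and HFrD (orange) library, as CPM over library totals (left) and TMM-scaled CPM (right), with the mean of 4 as a line. For the 52 others the diets separate over library totals (up to 284 against 320 CPM and above) and overlap on the TMM scale.

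Mirtron-like positions were found for some members, with low counts. Of the 54 located members, only the 33 within an intron were checked for this, not those that overlapped an exon. Of these 33, 10, from 9 hairpins, had a precursor with an end directly beside an exon of the host gene. For miR-7015-3p no precursor was given, and the mature sequence was used. Whether a precursor spanned its whole intron was not checked. Only miR-1981-5p among these 10 was tested, from an intron of Marc2, the gene of a mitochondrial reductase (chr1:184822465-184822488, minus strand). It had 25, 14, 8 and 12 counts in chow and 20, 28, 24 and 17 in HFrD, a difference of 0.38 on the log2 scale (SE 0.32, adjusted p = 0.483, edgeR). Its opposite arm, miR-1981-3p, had 11 counts in 4 libraries. The next most abundant was miR-6978-3p, from the intron of C3, the complement component secreted by hepatocytes (chr17:57217172-57217194, minus strand), with 5, 0, 3 and 4 counts in chow and 5, 2, 2 and 3 in HFrD. The 13 members numbered 6911 to 7083 had 86 counts in all and none was tested. Of all members, 12 (19.0%) ended in AG, the bases that close an intron, against 20 of 314 lower-numbered miRNAs (6.37%). Among the predicted sequences it was 1 of 66 (1.52%). These 12 are not the set beside an exon, since miR-3073a-3p ends in AG but lies 2265 bases from the nearest exon of its host gene. miR-1966-3p and miR-6966-3p also end in AG, but they overlap an exon and were not checked.

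The host genes of 5 rare members are given as examples. They were picked by hand from the 54 located members after their values were seen, and no share of any kind of host gene follows from them. miR-12184-5p and miR-12184-3p come from an intron of Gpld1, the gene of a phospholipase that the liver secretes, with 20 and 21 counts. miR-12178-3p comes from an intron of F5, the coagulation factor V gene, with 7 counts. miR-1933-3p comes from an intron of Ugp2, which makes UDP-glucose for glycogen, with 14 counts. miR-5114 overlaps an exon of Scd2, a fatty acid desaturase gene, with 4 counts, all in chow. No count of these members in any library exceeded 5, so a diet difference was not detectable at this depth.

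Of the 15 most abundant members, miR-1948-5p and miR-1249-3p remain. miR-1948-5p had 5, 0, 3 and 3 counts in chow and 3, 3, 0 and 5 in HFrD. miR-1249-3p had 6, 2, 3 and 2 counts in chow and 4, 0, 0 and 4 in HFrD. The 1 member listed in all 4 libraries of a diet and in at most 1 of the other was miR-7219-3p, with 3, 0, 0 and 0 counts in chow and 2, 2, 6 and 3 in HFrD. These counts are near the lowest value listed, and no test was made. The 52 untested members together were at 21.2 to 52.6 CPM in chow and 40.2 to 43.8 CPM in HFrD on the TMM scale, which overlap.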

How the data were processed

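Mature miRNAs were counted in 8 liver libraries, 4 per diet. Per the submitters' processing notes, cutadapt 1.9.2, Novoalign 3.02.12 and the mm10 build were used. The authors deposited 1 table with a raw count and a normalized score for each library. In the deposited score, the authors divided the count by a factor of 4.21 to 6.19 for its library and rounded to whole numbers, as the values show. The counts were used here, and the normalized score served as an alternative. Entries with the same mature sequence, which never differed in counts, were merged, and blanks were set to 0.

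All 443 sequences entered the filter and 170 were tested with edgeR 4.0.16 (TMM factors, filterByExpr with a minimum count of 10, quasi-likelihood test, Benjamini-Hochberg adjustment over 170, threshold 0.05). Alternatives used limma 3.58.1 and DESeq2 1.42.0 under R 4.3.3. Arm ratios used an exact permutation test. The edgeR procedure was tested on simulated counts with larger changes than any seen in the tested members, so smaller changes were not covered. Members and lists were chosen with earlier results of these data known. Members with an unadjusted p under 0.05, the 15 most abundant, both arms of hairpins in the arm test and any listed in all libraries of 1 diet and at most 1 of the other were named by rule. Same-numbered replicates were not treated as pairs.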

Additional observations from a re-analysis of the deposited data

Results flagged for a closer look

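miR-1839-5p in chow replicate 4, at 390 CPM on the TMM scale, stood apart from the other chow libraries, which lay between 267 and 285 CPM. Its gap to the nearest library was 0.851 of the group's range, above Dixon's critical value for 4 samples. The flag belongs to the TMM scale, on which chow replicate 4 had the lowest factor of all libraries (0.894). Over library totals it was at 348 CPM, and chow replicates 1 to 3 lay between 256 and 291 CPM, a smaller gap. In all, 32 groups were checked, and chance flags about 1 in 20.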

How the results depend on the processing

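The number of sequences called between the diets depended strongly on the settings, and the cause was not tested. Over all sequences it was 10, against 1 with upper quartile factors, 23 with library totals, 22 with no filter, 17 with a minimum count of 20, 20 with limma on the normalized values and 17 without predicted sequences. Leaving out 1 library gave 1 to 17. Among the members it was 1, against 0 with upper quartile factors, 2 under the other settings just listed and 0 to 2 when 1 library was left out. With the replicate number as a block, 15 were called over all and 2 among members. The replicate numbers come from the sample titles, and the numbers in the sample descriptions differ for several libraries. The labels name no batch, so this block has no stated basis. The deviations of same-numbered libraries correlated at 0.15, −0.10, 0.05 and 0.01. Whether these libraries share a batch was not tested.

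The rise in the members' summed level, 101 CPM over library totals, was 28.0 CPM on the TMM scale, an alternative added after the data were seen, and 88.0 to 119 CPM with 1 library left out. The difference in members listed per library, 3.25, ran from 0.417 to 5.42. The arm difference ran from −1.19 to −0.72 for miR-3068, from −0.55 to 1.06 for miR-1843a and from −0.52 to 1.41 for miR-12184.

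Log2 fold changes that turned positive were those of miR-1839-5p (0.027 with upper quartile factors, 0.024 with library totals, 0.034 with limma on normalized values) and miR-1843b-5p (0.088, 0.10 and 0.065 under the same settings, 0.045 with no filter, 0.0056 with a minimum count of 20). With 1 library left out they ran from −0.17 to 0.013 and from −0.084 to 0.073. Depth limits most members, since 52 of 63 never reached 10 counts in a library.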
